A study of Homo sapiens with 18 samples.

Results

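The change in transcript levels between the second and the third day of culture in solvent alone was measured in NCI-H1693, an established line of human lung cancer (non-small cell) whose labels call it SMARCA4-deficient. The comparison sets 3 libraries of cells kept in DMSO for 72 h against 3 libraries kept in DMSO for 48 h, 6 of the 18 libraries of the series, and every gene was considered. DMSO is the solvent of PRT3789, a degrader selective for SMARCA2, and the groups set beside the comparison were cells in 50 nM PRT3789 at 72 h and 48 h and cells in DMSO at 6 h, each with 3 libraries. All groups shared RPMI-1640 medium with 10% fetal bovine serum and were seeded to be subconfluent when the compound or DMSO was added, so a later time is also a longer time in the dish. The labels do not say whether the 3 libraries of a group came from separate cultures, so the p-values measure the spread between these libraries, which may be technical.

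Library totals were 26506833 to 29529712 counts at 72 h and 26915097 to 31094797 counts at 48 h, and one 48 h library, replicate 3, held exactly 27000000. The spread was smaller at 72 h: over 11037 genes, log2 CPM had a median SD of 0.0721 at 72 h and 0.119 at 48 h in DMSO, and it was 0.167 in DMSO at 6 h. Counting error is small at this depth except for genes near or under 1 CPM, whose levels rest on few reads. It is the only error that depth limits. Of 6 epithelial markers, EPCAM, KRT8 and KRT18 were high, with KRT8 at 4460 to 4884 CPM (counts scaled to library size) at 72 h and 5004 to 5314 CPM at 48 h. CDH1 and KRT19 lay between 251 and 378 CPM over both times. KRT7 was much lower, between 13.3 and 38.2 CPM. Of 6 markers of lung adenocarcinoma, NKX2-1 and SFTPB stayed under 1 CPM in all 6 libraries and SFTPC was at 0. NAPSA and SFTPA1 reached 1.68 and 1.76 CPM at 72 h, against at most 0.294 and 0.0735 CPM at 48 h. SLC34A2 lay between 17.9 and 33.3 CPM. Of 6 blood cell markers, 5 stayed under 1 CPM. Of the mesenchymal markers, FN1 had 281 to 508 CPM, VIM 27.8 to 47.3, ZEB1 5.47 to 8.48 and CDH2 1.02 to 3.19 CPM over both times. Of the fibroblast markers, LUM had 81 to 112 CPM, COL1A1 13.5 to 24.7, and DCN and PDGFRB at most 1.68 and 1.40 CPM. Replicates 1 and 2 at 72 h stood apart by low levels of a few genes: the surfactant gene SFTPA2 had 3.66, 3.96 and 0.0 CPM at 72 h, against 0.04, 0.0 and 0.0 CPM at 48 h, and CEACAM6 had 3.13, 3.03 and 0.332 CPM at 72 h, against 0.559, 0.223 and 0.0735 CPM at 48 h. Neither was called (adjusted p 0.132 and 0.200, edgeR). SFTPA2 also had 4.77, 5.27 and 3.73 CPM in the 3 PRT3789 libraries at 6 h, and at 48 h in PRT3789 it had 0.0, 0.0 and 4.31 CPM. CEACAM6 was above 2 CPM in the same 4 PRT3789 libraries in which SFTPA2 was above 2 CPM, and the source of these reads was not tested. SMARCA4 had 9.71 to 11.2 CPM at 72 h and 9.26 to 10.9 CPM at 48 h, and SMARCA2 had 45 to 49.9 CPM at 72 h and 40.2 to 44.3 CPM at 48 h (adjusted p 0.703 and 0.332).

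The gene list with the most called members was that of the immediate early genes. They are switched on within minutes by serum, growth factors or stress, without new protein synthesis, through factors already present in the cell that bind short elements in their promoters. They encode transcription factors such as those of the AP-1 family (FOS and JUN proteins) and the EGR, KLF and NR4A families, as well as phosphatases and RNA-binding proteins that end the response. Matrix-associated factors of the CCN family and other targets of YAP and TEAD, a pathway that responds to cell density and tension, overlap with them in part.

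Of 16291 genes tested, 88 were called at an adjusted p under 0.05 (edgeR quasi-likelihood test, Benjamini-Hochberg), 0.54% of those tested. Of these, 63 rose in 72 h cells relative to 48 h cells (0.387%) and 25 fell (0.153%), and 3221 genes had an unadjusted p under 0.05. Most changes were small: 6 rises and 3 falls reached 2-fold, and the smallest call was 0.27 on the log2 scale. The 3 libraries of each time lay apart without overlap in all 88, as they did in 30.1% of all tested genes. The fit drew its spread from all 18 libraries, including the more variable 6 h ones. A fit on the 6 compared libraries alone called 640 rises and 741 falls, among them all 88. The reason for the larger counts was not tested. Leaving out any of the 3 libraries at 72 h, or replicate 2 or replicate 3 at 48 h, lowered the calls to between 16 and 32 rises and between 1 and 8 falls.

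**Figure D1:**
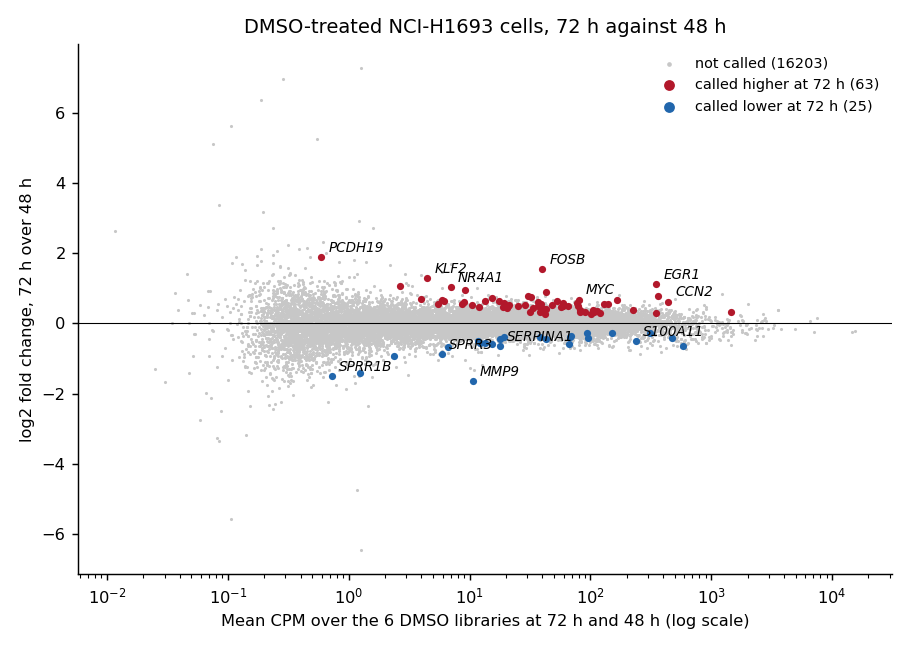
Each point is a gene, with its mean level over the 6 DMSO libraries at 72 h and 48 h on a log axis in CPM and its log2 fold change, 72 h over 48 h, on the vertical axis. The 63 genes called higher at 72 h are red, the 25 called lower are blue and the genes not called are grey. Most called genes lie within 1 log2 unit of zero, and FOSB, EGR1, KLF2, NR4A1, PCDH19 and MMP9 are among those outside.

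The promoters of 3 immediate early genes that rose are shown because they carry, within 250 bases before a RefSeq start, an element through which this gene class is classically controlled. The CRE (TGACGTCA, its own reverse complement) is bound by CREB and ATF factors, and the CArG box is the site of serum response factor. Capitals mark these matches. The sequences are from RefSeq on GRCh38.p14, written 5′ to 3′ on the strand of the gene. EGR1 lies at chr5:138465229-138465478 on the plus strand and has CArG boxes that begin 105 and 83 bases before the start. DUSP1 lies at chr5:172771196-172771445 on the minus strand, with a CRE that begins 125 bases before the start. ZFP36L1 lies at chr14:68793417-68793666 on the minus strand, with a CRE that begins 52 bases before the start. That start is an internal RefSeq start of ZFP36L1, and the window lies inside the gene as annotated (chr14:68787655-68796243).
EGR1: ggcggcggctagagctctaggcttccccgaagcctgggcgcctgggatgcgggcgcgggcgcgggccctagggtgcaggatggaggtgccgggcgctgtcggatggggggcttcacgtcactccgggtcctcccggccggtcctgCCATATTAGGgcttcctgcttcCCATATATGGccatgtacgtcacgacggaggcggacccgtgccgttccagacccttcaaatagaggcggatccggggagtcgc
DUSP1: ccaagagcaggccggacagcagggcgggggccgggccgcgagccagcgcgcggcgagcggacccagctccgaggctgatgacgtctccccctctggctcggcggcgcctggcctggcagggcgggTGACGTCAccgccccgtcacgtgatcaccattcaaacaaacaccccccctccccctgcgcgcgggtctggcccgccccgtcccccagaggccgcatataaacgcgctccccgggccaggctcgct
ZFP36L1: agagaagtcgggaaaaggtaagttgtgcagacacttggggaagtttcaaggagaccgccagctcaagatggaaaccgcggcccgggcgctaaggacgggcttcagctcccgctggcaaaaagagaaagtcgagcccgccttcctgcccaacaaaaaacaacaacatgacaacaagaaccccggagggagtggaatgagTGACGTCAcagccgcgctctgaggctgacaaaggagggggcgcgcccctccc
Among the 16 called members of the immediate early list, 14 had a RefSeq promoter entry. The CRE was found in 2 of these and the CArG box in 1. Of 22 tested members of the list with an entry, called or not, 3 held the CRE and 3 the CArG box. Of 70 called genes of any kind with an entry, 3 held the CRE and 1 the CArG box. Of 35116 RefSeq promoter windows of the same length, 1.65% held the CRE and 1.16% the CArG box on either strand. Counted by gene, with a match in any window, the shares were 3.29% and 1.41% of the 12540 tested genes with an entry. A match is a description of letters in this window only.

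Of 32 listed AP-1 and immediate early genes, 29 were tested, 16 rose at 72 h and none fell, against 0.387% of all tested genes called higher. All 29 had a positive fold change, 24 had 72 h libraries wholly above the 48 h libraries (16.4% of all tested genes did), and the median log2 fold change was 0.57, compared with 0.01 over all tested genes. FOSB, an AP-1 subunit (gene at chr19:45467996-45475179), had 67.8, 58.5 and 51.8 CPM at 72 h, against 22.2, 23.6 and 15 CPM at 48 h. The lowest 72 h library was more than double the highest 48 h library, and the log2 fold change was 1.55 (SE 0.27, adjusted p 0.0185). EGR1, a zinc finger factor induced by mitogens (gene at chr5:138465479-138469303), had 468, 496 and 475 CPM at 72 h, against 227, 243 and 196 CPM at 48 h. The replicates of EGR1 lay close together at each time, and its log2 fold change was 1.11 (SE 0.10, adjusted p 1.75e-05). NR4A1, an orphan nuclear receptor, had 12.3, 7.92 and 8.11 CPM at 72 h, against 5.52, 4.41 and 3.86 CPM at 48 h (1.04, SE 0.18, adjusted p 0.0185). The 72 h range of NR4A1 rests on 1 high library, while the other two still exceeded every 48 h library.

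JUN, the partner of FOS proteins in AP-1, had 206, 212 and 197 CPM at 72 h, against 123, 147 and 114 CPM at 48 h (log2 fold change 0.68, SE 0.08, adjusted p 0.00025). MYC, a growth-promoting transcription factor, had 98.7, 102 and 95.9 CPM at 72 h, against 61.9, 66.2 and 57.9 CPM at 48 h (0.67, SE 0.07, adjusted p 0.000219). For both genes every 72 h library lay above every 48 h library. Of the Krüppel-like factors, transcription factors of growth and differentiation, KLF2 averaged 6.34 CPM at 72 h and 2.59 CPM at 48 h (log2 fold change 1.28), KLF6 averaged 55.9 and 30.2 CPM at those times (0.89), and KLF4 averaged 19.0 and 11.6 CPM (0.72). FOSL2, another AP-1 subunit, rose by 0.55, and HES1, a repressor best known as a Notch target, rose by 0.58. FOS itself had 348, 351 and 314 CPM at 72 h, against 195, 238 and 220 CPM at 48 h, with no overlap and a log2 fold change of 0.63, but its adjusted p was 0.0834. It was named after its values were seen, as were EGR2, JUNB and FOSL1, which were not called either. EGR2 was scarce, with 0.845, 0.897 and 0.499 CPM at 72 h and 0.186, 0.128 and 0.184 CPM at 48 h (2.15, SE 0.58, adjusted p 0.107). JUNB had a log2 fold change of 0.21 and FOSL1 of 0.62 (adjusted p 0.279 and 0.117).

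Of the members that restrain the response, DUSP1, ZFP36 and ZFP36L1 rose, and ZFP36L2, named here after its values were seen, was not called (log2 fold change 0.22, adjusted p 0.384, edgeR). DUSP1, a phosphatase that switches off MAP kinases, had 476, 459 and 435 CPM at 72 h, against 228, 283 and 286 CPM at 48 h (log2 fold change 0.78, SE 0.12, adjusted p 0.0038). Its 48 h libraries differed more among themselves than the 72 h ones, but the times did not overlap. ZFP36 and ZFP36L1, RNA-binding proteins that promote decay of AU-rich messages, averaged 77.1 and 168 CPM at 72 h, against 54.3 and 113 CPM at 48 h (0.51 and 0.57). IER2 and IER5, small nuclear immediate early proteins, rose by 0.39 and 0.38, and CCN1 by 0.33. The count of 16 was 20 in the fit on the 6 libraries and between 8 and 14 when 1 library was left out, with 8 reached without replicate 3 at 48 h and 10 without replicate 1 at 72 h.

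**Figure D2:**
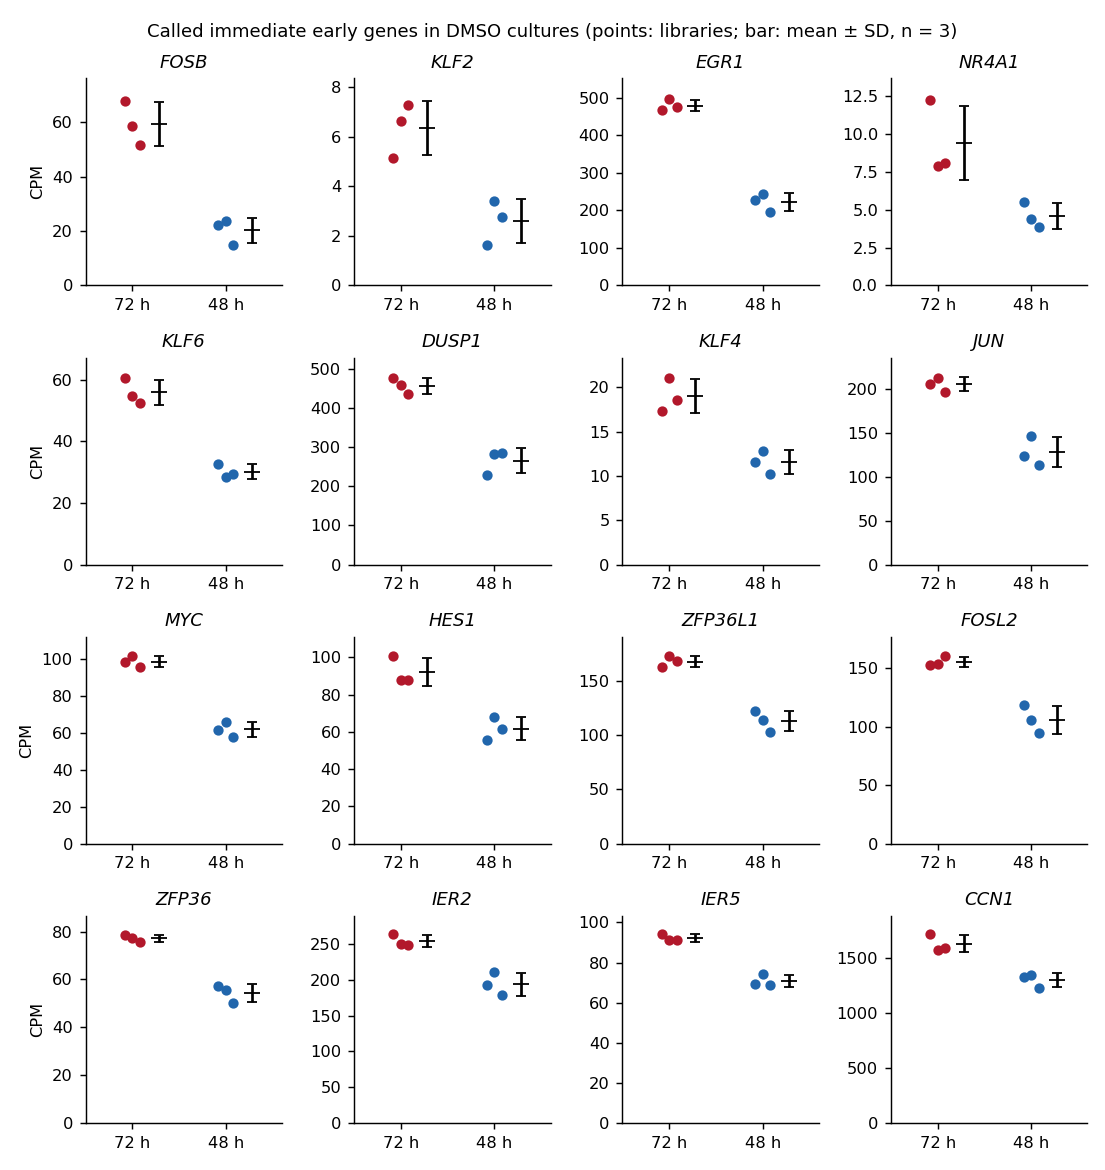
Levels in CPM of the 16 called immediate early genes, with 1 panel per gene and the 72 h libraries left of the 48 h libraries. Points are the 3 libraries of each time and the black bar is their mean ± SD; in every panel the 72 h points lie above the 48 h points.

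Of 30 tested feedback regulators and ligands of the MAP kinase pathway, 2 rose and none fell, against 0.387% of all tested genes called higher. The median log2 fold change of the list was 0.26. DUSP5, a nuclear phosphatase specific for ERK, had 17.9, 15.2 and 15.8 CPM at 72 h, against 10.5, 10.5 and 10.2 CPM at 48 h (0.65, SE 0.08, adjusted p 0.000954). HBEGF, a ligand of the EGF receptor, had 70.5, 70.6 and 70.4 CPM at 72 h, against 44.5, 47.7 and 50.0 CPM at 48 h (0.57, SE 0.06, adjusted p 0.00025). Both separated the times cleanly. DUSP6, the cytoplasmic ERK phosphatase, was also apart, at 37.6 to 43.5 CPM at 72 h and 22.2 to 27.5 CPM at 48 h, but its adjusted p was 0.0834. Outside the list, TRIB1, a pseudokinase that steers protein degradation and binds MEK, had 11.8, 12.4 and 12.1 CPM at 72 h, against 6.45, 6.07 and 6.13 CPM at 48 h (0.96, SE 0.13, adjusted p 0.00177).

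YAP and TEAD targets had positive fold changes throughout. Of 32 tested, 3 rose (CCN2, CCN1 and AJUBA) and none fell, against 0.387% of all tested genes called higher. All 32 were above zero, as were 8340 of all 16291 tested genes. Libraries were apart upward in 19, against 16.4% of all tested genes, and the median log2 fold change was 0.29. CCN2, a secreted matrix-associated protein and a standard readout of the pathway, had 567, 517 and 508 CPM at 72 h, against 317, 367 and 353 CPM at 48 h (0.62, SE 0.07, adjusted p 0.00025). CCN1, its relative, was the most abundant of the called rises, with 1723, 1580 and 1597 CPM at 72 h, against 1328, 1347 and 1229 CPM at 48 h (0.33, adjusted p 0.0263). AJUBA, a LIM protein that binds LATS kinases, averaged 133 CPM at 72 h and 109 CPM at 48 h (0.29). ANKRD1, another standard target, had 149, 157 and 157 CPM at 72 h, against 111, 124 and 144 CPM at 48 h, and was not called (0.29, adjusted p 0.162). THBS1 and AXL were likewise apart and not called (0.69 and 0.51, adjusted p 0.146 and 0.191). ANKRD1, THBS1 and AXL were picked outside the naming rule given below. The members of this list have long transcripts, with a median of 2822 bases against 1896 bases over all tested genes, and the median log2 fold change was 0.21 with the length trend removed. The fit on the 6 libraries called 14 of them, and 1 was called without replicate 2 or replicate 3 at 48 h or without any 72 h library.

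A few genes of DNA replication rose. Of 48 S phase and licensing genes, 3 rose and none fell, against 0.387% of all tested genes called higher. Fold changes were above zero in 39, as in 8340 of all 16291 tested genes. Libraries were apart upward in 23, against 16.4% of all tested genes, and the median log2 fold change was 0.17. POLD1, the catalytic subunit of DNA polymerase delta, had 45, 45.9 and 49 CPM at 72 h, against 33.4, 34.1 and 28.5 CPM at 48 h (0.54, SE 0.10, adjusted p 0.0263). POLA2, an accessory subunit of DNA polymerase alpha, averaged 46.4 CPM at 72 h and 38.3 CPM at 48 h (0.28). CHAF1A, a histone chaperone at replication forks, averaged 42.3 CPM at 72 h and 33.9 CPM at 48 h (0.32). MCM2 and MCM7, subunits of the replicative helicase, were apart but not called: MCM2 had 113 to 117 CPM at 72 h and 89.2 to 90.5 CPM at 48 h (0.36, adjusted p 0.0757). Both were picked outside the naming rule given below. The count of 3 was 12 by DESeq2 and 11 in the fit on the 6 libraries, and 0 without replicate 2 or replicate 3 at 48 h or without any 1 of the 72 h libraries. Among the other called rises, noticed after the values were seen, were the DNA repair genes FANCA and FANCI of the Fanconi anaemia pathway, the helicases RECQL4 and DDX11, and CDC25A, the phosphatase that activates CDK2. FANCA had 24.4, 25.6 and 25.2 CPM at 72 h, against 16.5, 17.9 and 17.7 CPM at 48 h (0.53, SE 0.07, adjusted p 0.00127). DDX11 has near-identical relatives in the genome, so its counts are uncertain. None of 59 G2/M genes was called by limma-voom or by edgeR on the 18 libraries, and DESeq2 called 2 higher. An unadjusted p under 0.05 (edgeR) was found upward in 18 and downward in 3. The fit on the 6 libraries called 8 of them higher and 1 lower. Libraries were apart upward in 24 and downward in 4, against 16.4% and 13.7% of all tested genes. The median log2 fold change of the 59 was 0.08, and 0.04 with the length trend removed.

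Other called rises with at least 5 CPM included SYNE1 and GASK1B. SYNE1, a nuclear envelope spectrin-repeat protein, had 34.9, 40.8 and 46.9 CPM at 72 h, against 25.6, 24.7 and 22.1 CPM at 48 h (0.76, SE 0.14, adjusted p 0.0263). GASK1B, a Golgi-associated kinase-like protein, had 6.20, 7.59 and 8.21 CPM at 72 h, against 4.17, 4.28 and 5.36 CPM at 48 h (0.67, adjusted p 0.0354). Both showed more spread at 72 h than at 48 h. The steepest called rise of all, that of the protocadherin PCDH19, was at a low level, with 0.845, 1.12 and 0.831 CPM at 72 h and 0.373, 0.192 and 0.184 CPM at 48 h (1.89, SE 0.29, adjusted p 0.00499). PPP1R15A (GADD34), which reverses the translation block of the integrated stress response, rose by 0.51 and was the single call among 45 genes of that response. CITED2, a CBP-binding regulator, rose by 0.29, to an average of 385 CPM at 72 h, against 314 CPM at 48 h. METTL2B, a tRNA methyltransferase, and NBPF1 also rose, but both have near-identical relatives, so their counts are uncertain.

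Of the called genes, MMP9 fell the most. This secreted gelatinase (gene at chr20:46008908-46016561, GRCh38) had 5.39, 5.27 and 4.85 CPM at 72 h, against 17.4, 16.9 and 14.1 CPM at 48 h. The libraries were far apart, and the log2 fold change of -1.64 (SE 0.12) had the smallest adjusted p of all genes, 1.46e-06. It was the one fall called under every alternative fit. TIMP1, an inhibitor of such proteases, averaged 16.8 CPM at 72 h and 21.9 CPM at 48 h (-0.39, adjusted p 0.0307), while ADAMTS1, another extracellular protease, rose by 0.53. These 3 were the only calls among 46 genes of collagens, matrix and proteases, against 0.54% of all tested genes called. The median log2 fold change of that list was 0.07, and -0.04 with the length trend removed.

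Genes of squamous differentiation supplied 3 further falls among 23 tested, against 0.153% of all tested genes called lower, and none of that list rose. SPRR3, a cornified envelope protein, had 4.82, 4.0 and 3.72 CPM at 72 h, against 7.75, 7.02 and 8.26 CPM at 48 h (-0.88, SE 0.17, adjusted p 0.0263). KLK6, a secreted serine protease, had 12.7, 12.5 and 11.6 CPM at 72 h, against 19.1, 18.2 and 17.6 CPM at 48 h (-0.58, adjusted p 0.0413). SPRR1B was near the limit of detection, with 0.282, 0.598 and 0.266 CPM at 72 h and 1.23, 1.28 and 0.698 CPM at 48 h (-1.50, adjusted p 0.0385). Of all 23, 13 had a fold change below zero and 10 above it, and the median was -0.12 on the log2 scale. Over all 16291 tested genes, 7948 were below zero. With the length trend removed, SPRR3 alone of the 3 was called.

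SERPINA1 (alpha-1-antitrypsin) also fell and had 12.8, 14.7 and 14.3 CPM at 72 h, against 21.7, 21 and 22.7 CPM at 48 h (-0.65, SE 0.13, adjusted p 0.0297). SELENOP, a selenium carrier, averaged 52.7 ± 6.05 CPM at 72 h and 79.8 ± 12.6 CPM at 48 h (SD, n = 3 each; -0.60, adjusted p 0.0263, edgeR). LRG1, a secreted leucine-rich glycoprotein, fell by 0.44 on the log2 scale, and TFPI2, a protease inhibitor of the matrix, fell by 0.40 to an average of 405 CPM at 72 h, against 537 CPM at 48 h. S100A11, a calcium-binding protein, had 207, 199 and 182 CPM at 72 h, against 281, 288 and 266 CPM at 48 h (-0.51, adjusted p 0.0297). Of 48 lysosome and autophagy genes, 2 fell and none rose, against 0.153% of all tested genes called lower. They were the cathepsin CTSB (-0.27) and the cholesterol transporter NPC2 (-0.43). The remaining falls among the 12 largest with at least 5 CPM were EIF4EBP3, MT-ND3, FAM200A, LINC02893 and CLUAP1. FAM200A, the long noncoding RNA LINC02893 and the ciliary gene CLUAP1 changed by -0.56, -0.55 and -0.51. EIF4EBP3, a binding protein of the cap-binding factor eIF4E, shares exons with a readthrough gene, so its counts are uncertain (-0.68). MT-ND3, the one call among 15 mitochondrially encoded genes, had 535, 439 and 381 CPM at 72 h, against 758, 722 and 655 CPM at 48 h (-0.66, adjusted p 0.0379).

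Ribosomal protein genes were lower without passing the test. None of 79 was called by edgeR or limma-voom, 43 had an unadjusted p under 0.05, all downward, and DESeq2 called 3 lower. All 79 fold changes were negative with a median of -0.44, and 68 had 72 h libraries wholly below the 48 h libraries, against 13.7% of all tested genes. Their share of all counts was 4.96% ± 0.362 at 72 h and 6.51% ± 0.788 at 48 h (SD, n = 3 each). RPLP2, for example, had 220, 206 and 193 CPM at 72 h, against 288, 289 and 266 CPM at 48 h (-0.44, adjusted p 0.0834). The fit on the 6 libraries called 58 of the 79 lower. In the 6 h libraries of DMSO, which enter the 18-library fit, the share was 9.08% ± 2.45 (SD, n = 3). Ribosomal protein transcripts are short, with a median of 682 bases, and the median log2 fold change was -0.35 with the length trend removed.

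The change moved with transcript length over the whole transcriptome. Across 15077 genes with a length, 92.5% of those tested, the Spearman correlation between length and log2 fold change was 0.376, as a description across genes that share the same 6 libraries. The median log2 fold change was -0.09 in the tenth of genes with the shortest transcripts and 0.21 in the tenth with the longest. Called rises had a median length of 2278 bases and called falls 900 bases. In PRT3789 at 72 h against 48 h, the correlation was 0.102. Libraries of the same time also differed by length. Deviations from the others of the group had Spearman correlations with length of 0.278, -0.213 and -0.131 at 48 h. At 72 h these were -0.233, -0.112 and 0.287. Against the mean of the 6 libraries, they were -0.005, -0.371 and -0.286 at 48 h, and 0.167, 0.256 and 0.380 at 72 h. Removing a smooth trend on length from each library kept 54 of the 63 rises and 18 of the 25 falls and gave 80 rises and 59 falls in all, so that 57.6% of the calls were rises, against 71.6% without the removal. The calls lost included IER5, CHAF1A, FANCI, RECQL4 and AJUBA among the rises and SPRR1B, KLK6, TIMP1 and IFITM2 among the falls. For the immediate early list the median was 0.59 with the trend removed, and 17 were called. RNA integrity per library was not given beyond a minimum, and its part in the length trend was not tested.

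**Figure D3:**
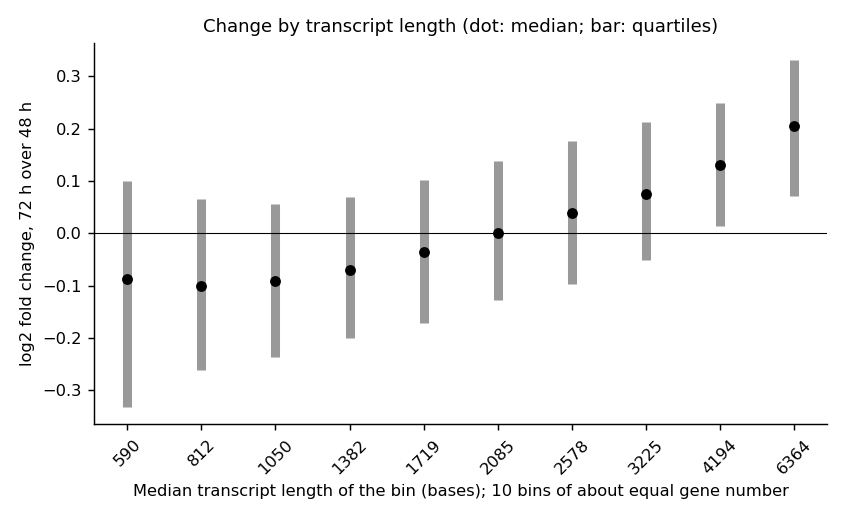
The log2 fold change, 72 h over 48 h in DMSO, of 15077 genes split into 10 bins of about equal gene number by transcript length in bases. Dots are bin medians and bars span the lower to the upper quartile of the genes; the medians lie at or below -0.07 in the 4 shortest bins and reach 0.21 in the longest.

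The genes called at 72 h against 48 h had differing courses over the 3 times in DMSO. The 48 h libraries also serve in the comparison of 48 h with 6 h, so the values are given side by side without a joint test. EGR1 averaged 41.9, 222 and 480 CPM at 6, 48 and 72 h, FOSB 3.09, 20.3 and 59.4 CPM, and JUN 40.8, 128 and 205 CPM. MYC averaged 21.2, 62.0 and 98.8 CPM at these times, and CCN2 90.6, 346 and 531 CPM. Each of these genes was lowest at 6 h and highest at 72 h. At 48 h against 6 h in DMSO, 21 of the 29 immediate early genes were called higher and 1 lower, where 17.1% of all tested genes were called higher and 20.1% lower. KLF4 and NR4A1 had no called change between 48 h and 6 h (adjusted p 0.258 and 0.186), with averages of 10.4, 11.6 and 19.0 CPM and of 3.60, 4.59 and 9.43 CPM at 6, 48 and 72 h. The replication genes ran a different course: POLD1 averaged 48.2, 32.0 and 46.6 CPM, FANCA 26.5, 17.4 and 25.1 CPM, and POLA2 77.8, 38.3 and 46.4 CPM at 6, 48 and 72 h. In that earlier comparison 47 of the 48 S phase genes were called lower. MMP9 averaged 142, 16.2 and 5.17 CPM, SPRR3 28.2, 7.68 and 4.18 CPM and SERPINA1 56.3, 21.8 and 13.9 CPM, lowest at 72 h in each case. Ribosomal proteins were called lower in 69 of 79 at 48 h against 6 h.

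**Figure D4:**
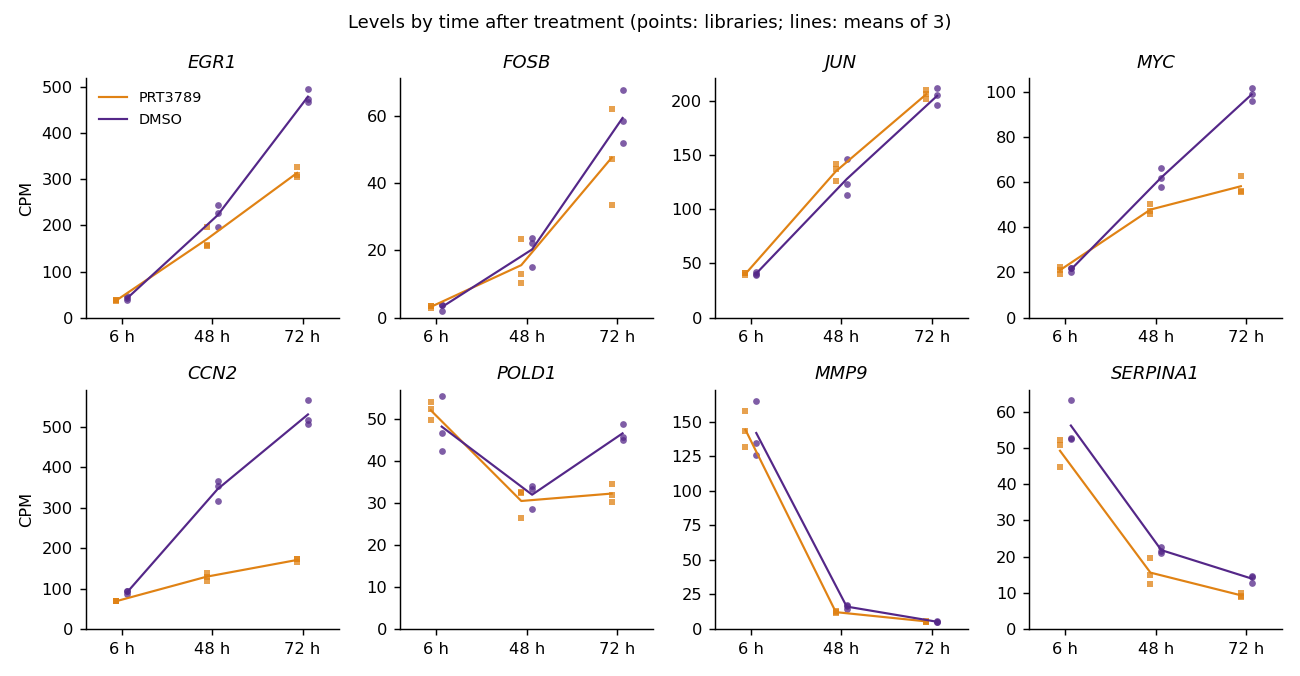
Levels in CPM of 8 genes at 6, 48 and 72 h, with PRT3789 in orange squares and DMSO in purple circles. Points are libraries and lines join the means of 3; in DMSO, EGR1, FOSB, JUN, MYC and CCN2 are highest at 72 h, MMP9 and SERPINA1 are lowest there, and POLD1 is lowest at 48 h.

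Cells in PRT3789 over the same day gave a separate set of libraries in which to look at the same genes. At 72 h against 48 h in PRT3789, 235 genes were called (1.44% of those tested), of which 162 rose (0.994%) and 73 fell (0.448%). Of the 63 genes that rose in DMSO, 57 had a positive change in PRT3789 and 21 were called higher. Of the 25 that fell in DMSO, 24 had a negative change in PRT3789 and 5 were called lower, and no gene was called in opposite directions. Over all tested genes 60.3% had the same sign in both. The shared calls are 11.1% of the PRT3789 calls and 29.5% of the DMSO calls. As a description over the 88 genes, chosen for their change in DMSO, the log2 fold changes in PRT3789 and in DMSO had a Pearson correlation of 0.796 and a Spearman correlation of 0.807, and over all tested genes Pearson's was 0.0524.

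Of the immediate early genes, 12 of 29 were called higher in PRT3789 and none lower, with a median log2 fold change of 0.36. FOSB changed by 1.6 in PRT3789 and by 1.55 in DMSO, EGR1 by 0.89 and 1.11, JUN by 0.61 and 0.68, and DUSP1 by 0.84 and 0.78. In levels, DUSP1 averaged 198 CPM in PRT3789 at 72 h and 110 CPM in PRT3789 at 48 h, and JUN 206 and 135 CPM at those times. MMP9 fell in PRT3789 as well, to 5.45 CPM at 72 h against 12.1 CPM at 48 h (-1.15, adjusted p 0.000103), and SERPINA1 changed by -0.74 (adjusted p 0.00723).

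The difference between the treatments in this change was tested gene by gene. No gene passed the threshold with edgeR, where the smallest adjusted p was 0.0582, nor with limma-voom, while 1476 genes (9.06%) had an unadjusted p under 0.05 and DESeq2 called 62 genes with a higher change in PRT3789 and 33 with a lower one. Of the 88 genes called in DMSO, 42 (47.7%) had an unadjusted p under 0.05 for the difference, and 28 of these were genes that rose in DMSO and changed less in PRT3789. The same DMSO values chose these genes and enter this test, so that share is a description. SYNE1 averaged 21.3 CPM at 72 h and 21.4 CPM at 48 h in PRT3789, a change of -0.01, against 0.76 in DMSO (difference -0.77, unadjusted p 0.00144). MYC averaged 58.1 CPM at 72 h and 47.8 CPM at 48 h in PRT3789, a change of 0.28, against 0.67 in DMSO (difference -0.39, unadjusted p 0.00158). For the S phase list, 18 of 48 had an unadjusted p under 0.05, all with the lower change in PRT3789, and the median log2 fold change was -0.05 in PRT3789 and 0.17 in DMSO. For POLD1 the change was 0.08 in PRT3789 and 0.54 in DMSO (unadjusted p 0.00551). For the immediate early list it was 5 of 29, 1 with a higher and 4 with a lower change in PRT3789. For lysosome and autophagy it was 12 of 48, 11 with a higher and 1 with a lower change in PRT3789. For the amino acid and integrated stress response it was 19 of 45, with a median difference of 0.20 over the list.

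**Figure D5:**
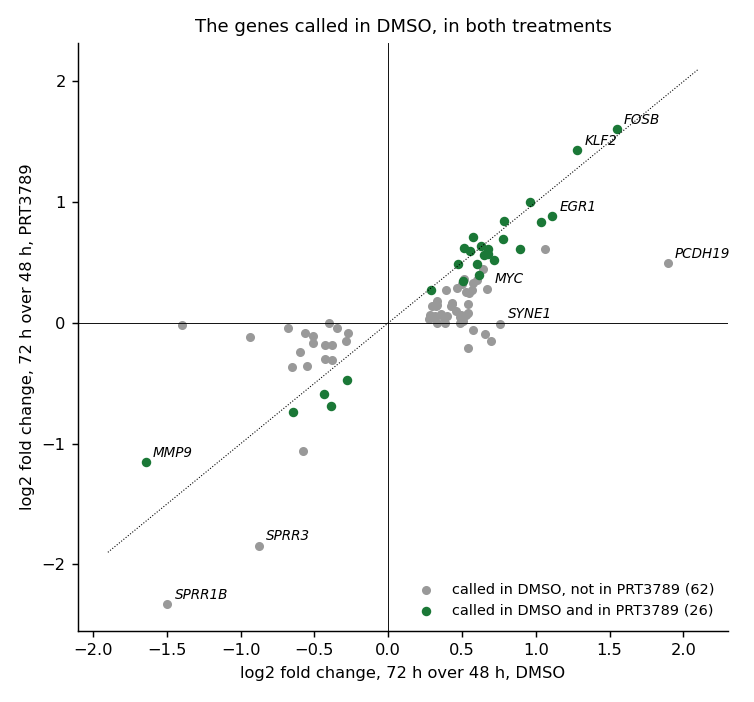
The log2 fold change, 72 h over 48 h, of the 88 genes called in DMSO, with DMSO on the horizontal and PRT3789 on the vertical axis. Green points are the 26 genes also called in PRT3789 and grey points the 62 that were not; the dotted line marks equal change, and 57 of the 63 rises and 24 of the 25 falls keep their sign in PRT3789.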

How the data were processed

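Poly(A) RNA of NCI-H1693 cells was sequenced as stranded libraries with paired reads of 150 bases. Per the labels' protocols, reads were trimmed with Trim Galore, aligned with STAR to GRCh38 (patch 14, annotation release 110) and quantified with RSEM in nf-core/rnaseq 3.17.0. The authors deposited expected counts per gene symbol, already whole numbers, for 43236 symbols in 18 libraries. Genes were filtered with filterByExpr over the 6 groups, which left 16291, TMM-scaled (trimmed mean of M values) and fitted with 1 mean per group in edgeR 4.0.16 (R 4.3.3, quasi-likelihood, robust). P-values were adjusted over all tested genes. CPM values use the TMM-scaled library size, and SDs are over 3 libraries. Alternatives used limma 3.58.1 and DESeq2 1.42.0, other scalings and filters, fewer libraries, each library left out, the replicate number as a block, and a lowess trend (span 0.3) on transcript length removed. Lengths are the median of a gene's protein-coding GENCODE v44 transcripts, or of all its transcripts where none is protein-coding. Levels are not per length and are compared within a gene. Gene coordinates and promoters are RefSeq GRCh38.p14.

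Named genes were the 12 largest called rises and falls of at least 5 CPM with libraries apart, 4 members of each of 36 gene lists (those with the smallest p), and SMARCA2, SMARCA4, KRT80 and PLAU. Not every gene that this rule names is reported here. Other called genes, and uncalled genes such as ANKRD1, THBS1, AXL, MCM2 and MCM7, were named outside it. The members and lists were chosen with earlier results of these data known. The CArG box was added after the data were seen. All 1286 listed symbols were found in the table, 4 through a synonym. No libraries were duplicates by a chi-square test of their counts. Scripts were tested on simulated counts.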

Additional observations from a re-analysis of the deposited data

How the results depend on the processing

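None of the 88 called genes changed direction in the 17 alternative fits. The median of the collagens, matrix and proteases list was -0.04 with the length trend removed, against 0.07. The median log2 fold change of all genes was 0.0161 with total counts and 0.01 with TMM. Of the 88 calls, 15 rises and 1 fall (MMP9) passed in all 17 alternative fits. Those rises included CCN2, DUSP1, DUSP5, EGR1, FANCA, HBEGF, JUN, KLF4, KLF6, MYC, TRIB1, ZFP36, ZFP36L1 and ZNF542P. Apart from fits that leave out a library, 40 rises and 11 falls passed throughout. The main counts of 63 rises and 25 falls were 316 and 225 by DESeq2, 640 and 741 on the 6 compared libraries, and 1537 and 1484 on the 12 libraries of 72 h and 48 h. Both smaller sets leave out the 6 h libraries, which had the largest spread, and the part of that spread in these counts was not tested. With the length trend removed the falls numbered 59. An adjusted p under 0.01 left 18 rises and 1 fall, and a change of at least 1.5-fold left 23 and 9. Leaving out 1 library gave 16 to 69 rises and 1 to 17 falls. For the change in PRT3789 against that in DMSO, with no calls in the main fit, higher and lower changes numbered 2 and 1 with no filter, 62 and 33 by DESeq2, 129 and 137 on 12 libraries, 10 and 5 with the length trend removed, and 0 to 8 and 0 to 1 without 1 library. The causes of these differences between fits were not tested.

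Deviations of same-numbered libraries at 72 h and 48 h had correlations of -0.340, 0.184 and -0.309. These differ in sign, and so few values cannot settle whether replicate numbers pair the samples. With the replicate block there were 57 rises and 25 falls, and with the block and the length trend removed 79 rises and 57 falls, with 11 and 6 calls for the difference between treatments.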

Other observations

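MT2A and S100A9 had lower levels at 72 h without being called. MT2A, a metal-binding protein, had 216, 213 and 187 CPM at 72 h, against 301, 345 and 316 CPM at 48 h (log2 fold change -0.64, SE 0.14, adjusted p 0.0556, edgeR). S100A9, a calcium-binding protein of inflamed epithelium and myeloid cells, had 7.53, 6.80 and 4.29 CPM at 72 h, against 13.7, 16.4 and 16.1 CPM at 48 h (-1.32, SE 0.31, adjusted p 0.0732), and averaged 77.4 CPM at 6 h.

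CHAC1 and ASNS, genes of the amino acid response, had changes of opposite sign in the treatments and were called in neither. CHAC1, a glutathione-degrading enzyme, averaged 30.1 CPM at 72 h and 22.1 CPM at 48 h in PRT3789 (0.44). In DMSO it had 10.5, 11.7 and 12.1 CPM at 72 h, against 14.2, 19.7 and 17.8 CPM at 48 h (-0.59, adjusted p 0.0593, edgeR). ASNS, asparagine synthetase, changed by 0.24 in PRT3789 and by -0.46 in DMSO (adjusted p 0.0572 in DMSO). Neither difference between treatments passed the adjusted threshold with edgeR.

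Of the 36 lists, 22 had no called member with edgeR. Among their 686 tested entries, 92 had an unadjusted p under 0.05 upward and 90 downward, and 43 of those 90 were ribosomal proteins. DESeq2 called 18 higher and 15 lower, and limma-voom called 1 each way. Over all 16291 tested genes, 3221 had an unadjusted p under 0.05 in either direction. DESeq2 called 316 of all tested genes higher and 225 lower, and limma-voom 84 and 35.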
